A study of Arabidopsis thaliana with 15 samples.

Results

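Sorted provascular cells and sorted stele cells of the Arabidopsis thaliana primary root were compared after both had been exposed to brassinolide for 2 h. The members are the 4 arrays whose labels give a 2 h brassinolide treatment of either reporter line, out of 15 arrays in all. Cells carrying pAtHB15:YFP, labelled as provascular, gave 2 arrays (replicates 1 and 2, called ATHB15 BL here). Cells carrying pWOL:GFP, labelled as stele, gave 2 arrays (replicates A and B, called WOL BL here). Both lines came from 6-day-old roots moved to medium with brassinolide (BL) at 10 nM, a brassinosteroid of high activity, and both were digested to protoplasts and sorted by fluorescence before RNA was extracted, amplified and hybridised to Affymetrix ATH1 arrays. The ATHB15 control (3 arrays) and the WOL control (2 arrays), labelled as 0 h, went through the same digestion and sorting and are used to see whether the line difference was also there without BL. WOL arrays at 0.5, 1 and 4 h of BL are used to place a level and, through the fit, to estimate the variance. No mock treatment of the same length and no array batch is named in the labels, so the reporter line and any batch that goes with it cannot be told apart. Nothing in the labels says that the replicates were separate cultures, so a p-value measures the spread between arrays, which may be technical.

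Brassinosteroids are steroid hormones that bind receptor kinases of the BRI1 family at the cell surface, and the signal reaches the nucleus through transcription factors of the BES1 and BZR1 family. In roots they act on cell elongation, through proteins that loosen the wall, and on division in the meristem. The stele is the central cylinder inside the endodermis and holds pericycle, xylem, phloem and the undifferentiated procambium between them. Provascular cells are the dividing precursors of xylem and phloem, and ATHB15 is a class III HD-ZIP transcription factor known from such cells. WOL, also called AHK4 or CRE1, is a cytokinin receptor whose promoter is active through the young stele. Provascular cells are therefore one of the cell types that the stele line also contains, and a difference between the lines sets a narrower population against a wider one.

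Treated provascular cells differed from treated stele cells at 3415 of 22746 probe sets (15%) at an adjusted p under 0.05, in limma fitted over all 15 arrays with the Benjamini-Hochberg adjustment over all probe sets. Of these, 1513 (6.65% of all) were higher in ATHB15 BL and 1902 (8.36%) were lower. The lower ones reached further. Their median log2 difference was -2.16 and 386 were lower by more than 8-fold, whereas the higher ones had a median of 1.47 and 17 were higher by more than 8-fold. For 536 of the lower calls the probe set was absent in both ATHB15 BL replicates and present in both WOL BL replicates, and the reverse pattern held for 116 of the higher calls. The arrays of the lines did not overlap at 12869 of the 22746 probe sets (56.6%, made up of 29.8% higher and 26.8% lower in ATHB15 BL), so non-overlap of 2 against 2 arrays is common here and is given below only as a description. It held for all 1513 higher and all 1902 lower calls, so it adds nothing to a call. Over all probe sets the median log2 difference was 0.02, and centring each array on its median moved it by 0.19, which turned the share of higher calls to 57.7%, against 44.3% in the uncentred fit. Only 13513 probe sets match 1 gene in the annotation, and of these 821 (6.08%) were higher and 990 (7.33%) were lower. In RNA from sorted bulk cells, fewer cells of a type and less RNA per cell cannot be told apart.

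The arrays of each treated group resembled each other more than those of the other line. The correlation across probe sets was 0.958 between the ATHB15 BL arrays and 0.956 between the WOL BL arrays, against 0.851 to 0.869 between the lines. The share of probe sets with a present call was 52.3% and 56.0% in ATHB15 BL, and 59.1% and 54.7% in WOL BL. The 3' to 5' signal ratio of the ubiquitin control, which rises when RNA is degraded or copied incompletely, was 9.07 and 5.99 on ATHB15 BL arrays and 4.90 and 3.79 on WOL BL arrays, without overlap. The same ratio for GAPDH overlapped between the lines, at 2.23 and 1.09 against 1.91 and 2.85. For actin it went the other way, at 20.29 and 5.68 on ATHB15 BL arrays against 26.14 and 24.09 on WOL BL arrays. With the ubiquitin ratio as a covariate 444 probe sets were called, 441 of them among the 3415 and in the same direction, and with the actin ratio 1265 were called. Leaving out 1 array gave 845 calls without ATHB15 BL 2, 2318 without ATHB15 BL 1, 1343 without WOL BL B and 1356 without WOL BL A. No call could change sign when an array was left out, because the arrays of every call did not overlap between the lines. Of the calls, 635 held whichever array was left out.

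The labels of the sorted cells were set against marker lists, of which only a few members have a probe set named in the annotation. The probe sets of ATHB15 and of AHK4 themselves are not named there, so neither promoter's own gene could be read. Of 4 measured procambium and provascular genes, none passed the test and all 4 had a higher mean in ATHB15 BL. A positive difference was found at 11712 of all 22746 probe sets. The summed signal of the 4 genes was 2775.7 and 3585.7 in ATHB15 BL, against 1558.3 and 1773.2 in WOL BL. Most of each sum came from LHW and PHV, and LHW was the only 1 of the 4 whose arrays did not overlap. LHW, a bHLH factor that promotes division of vascular precursors, had signals of 1745.2 and 2291 in ATHB15 BL and 669.3 and 894.5 in WOL BL. The groups did not overlap, but the log2 difference of 1.35 ± 0.44 (SE) missed the threshold at an adjusted p of 0.053 in limma. PHV, a class III HD-ZIP relative of ATHB15, had 553.5 and 1051.3 in ATHB15 BL and 663.6 and 625.4 in WOL BL, and these ranges overlapped (log2 difference 0.24 ± 0.42, limma adjusted p = 0.777).

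Both measured xylem genes were lower in ATHB15 BL, IRX15 and GUT2 (IRX10), which act in making the xylan of secondary walls. Over all probe sets 8.36% were lower. IRX15 was called absent on all 4 arrays, with signals of 7.8 and 3.2 in ATHB15 BL and 81.8 and 100.3 in WOL BL, so no fold is given. GUT2 had 94.3 and 46.9 in ATHB15 BL and 159.6 and 328.4 in WOL BL (log2 difference -1.56 ± 0.44, limma adjusted p = 0.0292, and between 0.0346 and 0.24 with 1 array left out). Of 3 measured endodermis genes 1 was lower, against 8.36% of all probe sets. It was the receptor kinase gene GSO1 (SGN3), which is needed to close the Casparian strip. Its signals were 27.3 and 34.4 in ATHB15 BL and 286 and 139.4 in WOL BL (log2 difference -2.21 ± 0.71, limma adjusted p = 0.0493, lost whichever array was left out). With the ubiquitin ratio as covariate the IRX15, GUT2 and GSO1 calls were lost (limma adjusted p = 0.0635, 0.245 and 0.262). None of 2 phloem genes, 4 pericycle and lateral root genes and 5 cortex genes passed the test, and no cortex gene was called present on any of the 4 arrays.

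Root hair genes were the marker list that differed most between the treated lines, although root hairs lie outside the stele. All 3 measured members were lower in ATHB15 BL, where 8.36% of all probe sets were. The summed signal of the 3 genes was 19 and 369.6 in ATHB15 BL, against 3004.9 and 1327.3 in WOL BL. All 3 were called present on both WOL BL arrays and on ATHB15 BL 2, and none on ATHB15 BL 1. EXPA7 and EXPA18, expansins of root hairs, had 5 and 56.1, and 8.7 and 94.5, in ATHB15 BL. In WOL BL they had 492.1 and 228.6, and 501.6 and 281.9. Their log2 differences were -3.18 ± 0.84 and -2.91 ± 0.74 (limma adjusted p = 0.0208 and 0.0181), and each call was lost without 3 of the 4 arrays in turn. AT1G30870, which the list holds as PER7, had 5.3 and 219 in ATHB15 BL against 2011.2 and 816.8 in WOL BL (log2 difference -4.20 ± 1.02, limma adjusted p = 0.0142, lost without 2 of the 4 arrays in turn). All 3 calls were lost with the ubiquitin ratio as covariate (limma adjusted p = 0.189 for EXPA7, 0.287 for EXPA18 and 0.251 for AT1G30870). What part root hair RNA on the WOL arrays had in the other lower calls was not tested. None of the marker genes of the root cap and the non-hair epidermis has a named probe set.

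**Figure D1:**
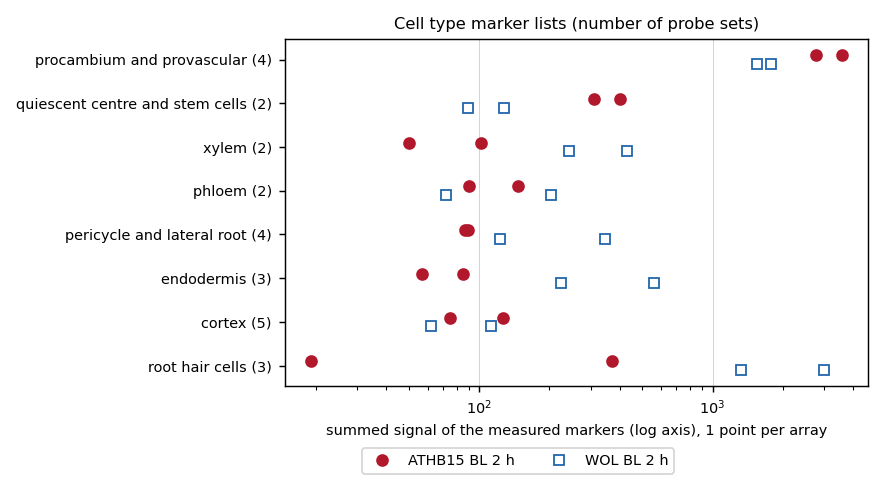
Summed signal of the measured genes of each cell type marker list on the 4 treated arrays (log axis, arbitrary units), with filled circles for ATHB15 BL 2 h, open squares for WOL BL 2 h and the number of probe sets in brackets. Root hair genes sum to 19 and 369.6 in ATHB15 BL and to 3004.9 and 1327.3 in WOL BL, and procambium genes sum to 2775.7 and 3585.7 against 1558.3 and 1773.2. Most of each procambium sum comes from LHW and PHV.

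Among genes of wall loosening, lower calls outnumbered higher ones, with EXPA15 as the large exception. Of 19 expansin probe sets, 2 were higher and 7 were lower in ATHB15 BL, with a median log2 difference of -0.39, and of 10 XTH probe sets none was higher and 5 were lower, with a median of -1.16. Of all probe sets 6.65% were higher and 8.36% were lower. Expansins loosen the wall without cutting it, and XTH enzymes cut and rejoin xyloglucan. EXPA15, an alpha-expansin, had the largest rise of all probe sets named by size, with signals of 2982 and 5372.5 in ATHB15 BL and 497.7 and 219.8 in WOL BL. As for every higher call, both ATHB15 BL arrays were above both WOL BL arrays (log2 difference 3.53 ± 0.46, limma adjusted p = 0.000465). The other called rise, EXPA9, was present on both ATHB15 BL arrays at 76.4 and 90.8 and absent on both WOL BL arrays at 31.6 and 4, which is at least 2.57-fold higher (limma adjusted p = 0.0217, and up to 0.22 with 1 array left out).

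EXLA2, an expansin-like A protein, was among the strongest falls of the comparison. It was absent in ATHB15 BL at 18.7 and 4.9, and present in WOL BL at 955 and 1083.8, so it was at least 34.1-fold lower (limma adjusted p = 3.24e-05). Such a bound is given where the lower group was called present on neither array, and it sets each signal there to at least the lowest one called present on that array, which was 8.3 to 15.5 over the 4 arrays. Its relative EXLA1 had 45.4 and 25.6 in ATHB15 BL and 340.7 and 785.1 in WOL BL (log2 difference -3.40 ± 0.53, limma adjusted p = 0.00122). EXLB1 was absent on both ATHB15 BL arrays at 10.3 and 28.4, against 178.3 and 223.4 in WOL BL, but its call was lost whichever array was left out. With the ubiquitin ratio as covariate the EXPA9, EXLA1 and EXLB1 calls were lost (limma adjusted p = 0.209, 0.0529 and 0.288).

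Among the XTH genes the falls of XTH18 and XTH21 were the largest. XTH18 had 8.3 and 22 in ATHB15 BL and 1983.6 and 734.1 in WOL BL (log2 difference -5.33 ± 0.56, limma adjusted p = 0.000113). XTH21 had 46.8 and 46.5 in ATHB15 BL and 2735.8 and 1324.5 in WOL BL (log2 difference -4.94 ± 0.62, limma adjusted p = 0.000389). Both calls, like those of EXPA15 and EXLA2, held with every array left out in turn and with the ubiquitin or the actin ratio as covariate. XTH19, XTH16 and EXGT-A3 were lower as well, at log2 differences of -2.63, -1.78 and -1.19, and lost the call without 3, 2 and 4 of the 4 arrays in turn. XTH18 and XTH19 are neighbouring, closely similar genes, and whether their probes tell the transcripts apart was not tested. Within the same wall theme, CSLC04, which makes the glucan backbone of xyloglucan, had 334.4 and 251.1 in ATHB15 BL and 1104 and 943.3 in WOL BL, a log2 difference of -1.76 ± 0.50 (limma adjusted p = 0.0293, lost whichever array was left out). It was the only one of 8 cellulose synthase and related probe sets to pass, where 8.36% of all probe sets were lower. With the ubiquitin ratio as covariate the XTH19, XTH16, EXGT-A3 and CSLC04 calls were lost (limma adjusted p = 0.167, 0.102, 0.401 and 0.181).

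**Figure D2:**
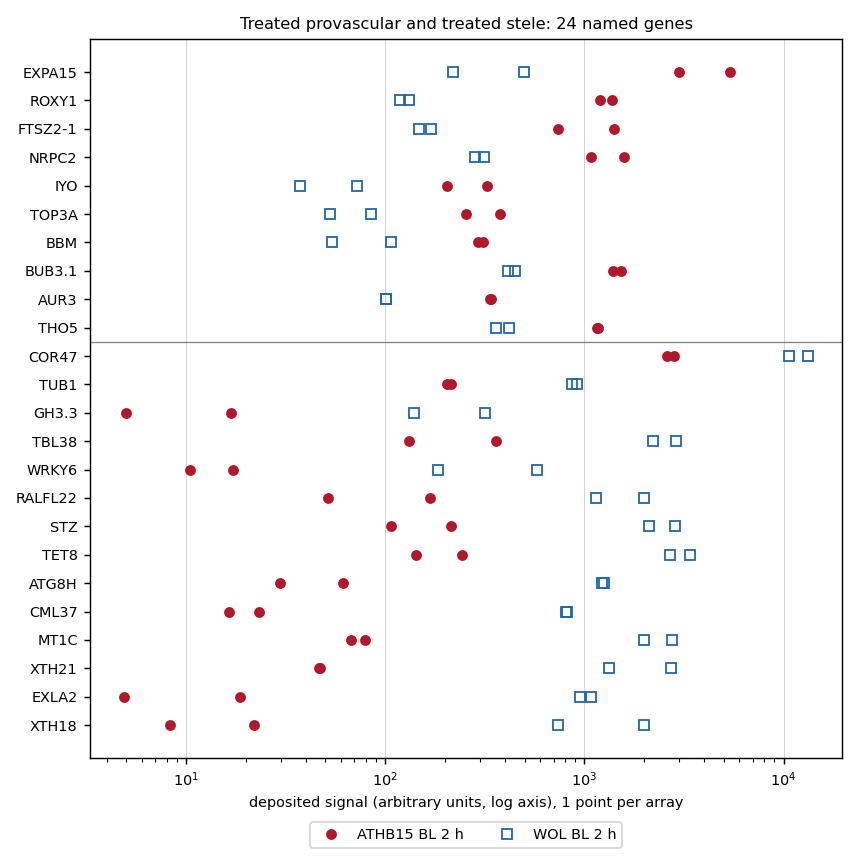
Deposited signal of 24 named genes on the 4 treated arrays (log axis, arbitrary units, 1 point per array), with filled circles for ATHB15 BL 2 h and open squares for WOL BL 2 h. Genes above the grey line were called higher in ATHB15 BL, from EXPA15 at 2982 and 5372.5 against 497.7 and 219.8, and genes below it lower, down to XTH18 at 8.3 and 22 against 1983.6 and 734.1.

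A few genes of division were higher in ATHB15 BL. Of 30 listed cell division genes only 4 have a named probe set, and 2 of them were higher in ATHB15 BL (6.65% of all probe sets were) and none lower, with a median log2 difference of 1.02. The called members were AUR3 and AUR2, Aurora kinases that phosphorylate histone H3 and act at the spindle. AUR3 had 335.4 and 340.5 in ATHB15 BL and 100.5 and 101.2 in WOL BL, so the replicates lay close together and the lines apart (log2 difference 1.60 ± 0.38, limma adjusted p = 0.0132). AUR2 had 479.2 and 484.6 against 231.6 and 219.9 (log2 difference 1.04 ± 0.33, limma adjusted p = 0.0444). AUR1, at 1071.7 and 579.1 against 530.9 and 544.9, did not pass (log2 difference 0.54 ± 0.39). The AUR3 and AUR2 calls were lost whichever array was left out, with adjusted p-values of 0.0527 to 0.0882 for AUR3, and with the ubiquitin ratio as covariate (adjusted p = 0.232 for AUR3 and 0.41 for AUR2).

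Further genes of this kind, picked after their values were seen, show the size of the difference and add no support to the list. BUB3.1, of the spindle checkpoint, had 1534.7 and 1394 in ATHB15 BL and 447.3 and 414.2 in WOL BL (log2 difference 1.73 ± 0.39, limma adjusted p = 0.00947). TOP3A, a topoisomerase that resolves recombining DNA, had 253.5 and 376.8 against 84.6 and 53 (log2 difference 1.97 ± 0.42, limma adjusted p = 0.00761). ATSMC2, a condensin subunit, was present in ATHB15 BL at 117.2 and 101.4 and absent in WOL BL at 29.6 and 28.8, at least 2.77-fold higher (limma adjusted p = 0.00841). On all 3 the ATHB15 BL arrays were above the WOL BL arrays, as for every higher call. Their calls were lost without 3, 2 and 2 of the 4 arrays in turn, at adjusted p-values of at most 0.0638, 0.0888 and 0.0552. Haspin, a histone H3 kinase, and KINESIN-12B, a motor of the phragmoplast, were higher at log2 differences of 2.09 ± 0.61 and 1.46 ± 0.39, and both calls were lost whichever array was left out. BBM, an AP2 factor of the root stem cell region, had 310.3 and 292.7 in ATHB15 BL and 54 and 106.4 in WOL BL (log2 difference 1.78 ± 0.49, limma adjusted p = 0.0251, and up to 0.188 with 1 array left out). With the ubiquitin ratio as covariate none of these 6 calls held, at adjusted p-values of 0.184 for BUB3.1, 0.175 for TOP3A, 0.166 for ATSMC2, 0.277 for Haspin, 0.198 for KINESIN-12B and 0.19 for BBM. BBM was 1 of 2 measured genes of the quiescent centre and stem cell list, whose summed signal was 401.0 and 311.6 in ATHB15 BL and 89.2 and 127.3 in WOL BL.

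Some subunits of the RNA polymerases were higher in ATHB15 BL. Of 12 probe sets for subunits of the nuclear RNA polymerases, a family chosen after values were seen, 4 were higher and none lower, all 12 had a positive difference, and the median was 0.87. Of all 22746 probe sets 6.65% were higher, and 11712 had a positive difference. NRPC2, the second largest subunit of RNA polymerase III, had 1080.5 and 1571 in ATHB15 BL and 313.5 and 280.8 in WOL BL (log2 difference 2.08 ± 0.47, limma adjusted p = 0.0101). NRPA1 and NRPA2, the large subunits of RNA polymerase I, had log2 differences of 1.37 ± 0.43 and 1.32 ± 0.40 (limma adjusted p = 0.0444 and 0.0379). The fourth was NRPB9B, at 1083.6 and 1094.9 against 338.4 and 356.2. In each the ATHB15 BL arrays lay above the WOL BL arrays, as for every higher call. All 4 calls were lost with the ubiquitin or actin ratio as covariate, and only NRPC2 kept its call with any array left out, without ATHB15 BL 1. With each array centred on its median 5 of the 12 were higher.

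Other genes of transcription and RNA handling were picked after their values were seen. IYO (MINIYO), which promotes transcription elongation at the onset of differentiation, had 204.5 and 325.3 in ATHB15 BL and 37.4 and 71.8 in WOL BL (log2 difference 2.00 ± 0.39, limma adjusted p = 0.00477). THO5, of the complex that couples transcription to RNA export, had 1164.8 and 1158.7 against 418.9 and 361.1 (log2 difference 1.54 ± 0.31, limma adjusted p = 0.00593). PRH75, a nuclear DEAD-box RNA helicase, had 2570.6 and 2869.8 against 791.6 and 896.3 (log2 difference 1.67 ± 0.41, limma adjusted p = 0.0157). These genes were separated on all 4 arrays, as every called probe set was. Without 1 array the highest adjusted p was 0.0684 for IYO, 0.0526 for THO5 and 0.109 for PRH75. All 3 calls were lost with the ubiquitin ratio (adjusted p = 0.0688, 0.146 and 0.177), and with the actin ratio only that of THO5 held (0.0277, against 0.0552 for IYO and 0.0951 for PRH75). Of 15 probe sets for the organelle RNA processing proteins named OTP and CRR, a family chosen after values were seen, 2 were higher, CRR22 (at least 3.28-fold) and OTP81 (at least 3.8-fold), both absent on both WOL BL arrays, with the calls lost without 2 and 3 of the 4 arrays in turn. The share of higher calls over all probe sets was 6.65%. None of 11 probe sets for SNF2-type CHR chromatin remodellers passed, although their median was 0.98.

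Development and hormone genes on the higher side, picked after their values were seen, included ROXY1, FTSZ2-1, SPT and YUC6. ROXY1, a CC-type glutaredoxin known from petal development, had 1197.3 and 1372.5 in ATHB15 BL and 118.6 and 132 in WOL BL (log2 difference 3.20 ± 0.56, limma adjusted p = 0.0025). FTSZ2-1, which forms the ring that divides plastids, had 733.7 and 1410.8 against 170 and 147.8 (log2 difference 2.57 ± 0.42, limma adjusted p = 0.00164). Both calls held with every array left out in turn, and with the ubiquitin ratio FTSZ2-1 kept its call (adjusted p = 0.0495) and ROXY1 lost it (0.0653). YUC6, a flavin monooxygenase of auxin synthesis, was present on 1 array, ATHB15 BL 2, at 101.8, and absent on the others at 52.1 in ATHB15 BL and 5 and 3.1 in WOL BL, at least 3.24-fold higher (limma adjusted p = 0.00258). SPT, a bHLH growth regulator, had 389.4 and 306.5 in ATHB15 BL and 64.2 and 132.8 in WOL BL (log2 difference 1.73 ± 0.43, limma adjusted p = 0.016, and up to 0.154 with 1 array left out). GID1A, a gibberellin receptor, had 224.8 and 158.5 in ATHB15 BL and 65.4 and 62.9 in WOL BL (log2 difference 1.35 ± 0.34, limma adjusted p = 0.0176, lost whichever array was left out). With the ubiquitin ratio as covariate the YUC6 call held (limma adjusted p = 0.0306), and those of SPT and GID1A were lost (0.21 and 0.294).

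Most calmodulin-like genes were lower. Of 8 calmodulin-like probe sets, a family chosen after values were seen, none was higher and 6 were lower in ATHB15 BL (8.36% of all probe sets were), with a median log2 difference of -2.47. CML37, a calcium sensor induced by wounding, was absent on ATHB15 BL 1 at 16.5 and marginal on ATHB15 BL 2 at 23.1, and present in WOL BL at 816.6 and 807.5, at least 23.2-fold lower (limma adjusted p = 0.000465). CML42 was absent in ATHB15 BL at 29.4 and 28.7 and present in WOL BL at 253.9 and 150.5, at least 4.71-fold lower (limma adjusted p = 0.00278). The CML37 and CML42 calls held with every array left out in turn, and with the ubiquitin ratio only that of CML37 did (adjusted p = 0.0239, against 0.0645 for CML42).

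Of 11 RALF-like probe sets, for small secreted peptides that raise the pH outside the cell and restrain growth, also chosen after values were seen, none was higher and 5 were lower (8.36% of all probe sets were), with a median of -1.63. RALFL22 had 166.9 and 51.5 in ATHB15 BL and 1993.3 and 1138 in WOL BL (log2 difference -3.78 ± 0.53, limma adjusted p = 0.000709). RALFL33 had 258.7 and 130.6 against 3102.8 and 1676.5 (log2 difference -3.52 ± 0.57, limma adjusted p = 0.00156). Both were far below WOL BL on both arrays and kept the call in every leave-one-array-out fit and with the ubiquitin ratio. RALFL27, RALFL31 and RALFL32 were the other members called.

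Lower calls among stress and defence genes were STZ, 2 WRKY and 4 glutathione transferase probe sets. STZ (ZAT10), a zinc finger repressor and the only measured gene of 15 on the wounding and early stress list, had 214.8 and 106.3 in ATHB15 BL and 2097.6 and 2849.8 in WOL BL (log2 difference -3.87 ± 0.53, limma adjusted p = 0.000572). Of 7 WRKY probe sets, for transcription factors of defence and senescence, 2 were lower and none higher. Over all probe sets 8.36% were lower and 6.65% were higher. WRKY6 was absent in ATHB15 BL at 10.5 and 17.1 and present in WOL BL at 575.4 and 184.1, at least 11.6-fold lower (limma adjusted p = 0.0118, and up to 0.117 with 1 array left out). WRKY53 was absent on ATHB15 BL 1 at 15.3 and marginal on ATHB15 BL 2 at 31, and present in WOL BL at 227.8 and 147.6, at least 5.21-fold lower (limma adjusted p = 0.00393). The other 5 WRKY probe sets did not pass. With the ubiquitin ratio as covariate the STZ call held (limma adjusted p = 0.0239), and those of WRKY6 and WRKY53 were lost (0.173 and 0.119). Of 14 glutathione transferase probe sets, for enzymes that conjugate toxic compounds, 4 were lower, none was higher and 10 did not pass, with a median of -0.82. The largest falls among them were GSTU25 and GSTU22, at log2 differences of -3.81 ± 0.84 and -3.65 ± 0.73 (limma adjusted p = 0.00871 and 0.00548), each lost without 2 of the 4 arrays in turn.

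Protective proteins of drying and cold made a set of 10 probe sets, chosen after values were seen, of which 6 were lower (8.36% of all probe sets were) and none higher, with a median of -1.05. COR47, a dehydrin, had 2604 and 2818.5 in ATHB15 BL and 13294.8 and 10684.7 in WOL BL (log2 difference -2.13 ± 0.38, limma adjusted p = 0.00286). LEA4-5 was absent in ATHB15 BL at 16.2 and 23 and present in WOL BL at 213.5 and 234.8, at least 6.77-fold lower (limma adjusted p = 0.00225). Both calls held with every array left out. MT1C, a metallothionein, had 67 and 79 in ATHB15 BL and 2766.6 and 2001.3 in WOL BL (log2 difference -4.74 ± 0.80, limma adjusted p = 0.00192). The COR47, LEA4-5 and MT1C calls were lost with the ubiquitin ratio as covariate, at adjusted p-values of 0.0728, 0.0779 and 0.0774.

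Of 9 probe sets matching ATG8 names, for the ubiquitin-like proteins that coat the autophagosome, 4 were lower in ATHB15 BL, none was higher and 5 did not pass, with a median of -1.17. ATG8H had 61.6 and 29.7 in ATHB15 BL and 1248.6 and 1224.6 in WOL BL (log2 difference -4.39 ± 0.57, limma adjusted p = 0.000465). Tetraspanins, which organise membrane domains, were split, with 2 of 15 probe sets higher and 4 lower. For both families the shares over all probe sets were 6.65% higher and 8.36% lower. TET8, of secreted vesicles, had 241.4 and 141.9 in ATHB15 BL and 2697.2 and 3383.8 in WOL BL (log2 difference -3.91 ± 0.64, limma adjusted p = 0.0017), and TET10 and TET2 were the ones that were higher, at log2 differences of 1.65 and 1.39. The ATG8H and TET8 calls held with every array left out and with the ubiquitin or actin ratio, whereas the TET10 and TET2 calls were lost in at least 3 of the 4 leave-one-array-out fits.

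Of 7 tubulin probe sets 2 were lower and none higher, where 8.36% of all probe sets were lower. TUB1 had 203.6 and 212.9 in ATHB15 BL and 917.6 and 861.3 in WOL BL (log2 difference -2.01 ± 0.43, limma adjusted p = 0.00787), and TUB6 had 884.4 and 859.5 against 2022.2 and 2176.4 (log2 difference -1.25 ± 0.33, limma adjusted p = 0.0217). The TUB1 call was lost without 2 arrays in turn and the TUB6 call without any one. Trichome birefringence-like genes, known for acetylating wall polymers, had 7 of 24 probe sets lower and none higher, led by TBL38 at 131.2 and 358.7 in ATHB15 BL and 2891.6 and 2215.1 in WOL BL (log2 difference -3.44 ± 0.66, limma adjusted p = 0.00416). The TUB1, TUB6 and TBL38 calls were lost with the ubiquitin ratio as covariate (limma adjusted p = 0.141, 0.245 and 0.106). The ATG8, tetraspanin and birefringence-like families were chosen after values were seen. None of 17 sugar transporter and 10 bHLH probe sets passed in either direction, with medians of -0.35 and -0.04.

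**Figure D3:**
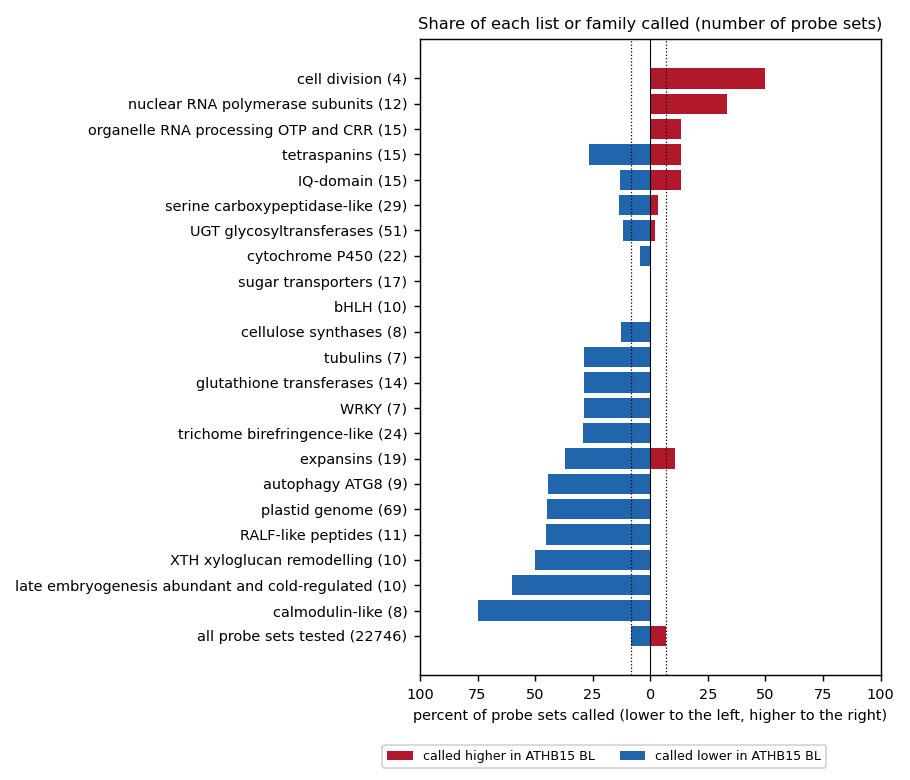
Percent of the probe sets of each gene list or family called in the treated comparison, with bars to the right for higher and to the left for lower in ATHB15 BL, the number of probe sets in brackets and dotted lines at the shares over all probe sets (6.65% higher, 8.36% lower). Calmodulin-like genes had 6 of 8 called lower, XTH genes 5 of 10 and sugar transporters 0 of 17, and RNA polymerase subunits had 4 of 12 called higher.

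Brassinosteroid and related hormone genes were thinly covered. None of 13 genes of brassinosteroid synthesis and breakdown has a named probe set, and of 19 signalling genes 2 do. BIM1, a bHLH partner of BES1, had 260.6 and 215.1 in ATHB15 BL and 621.3 and 762.5 in WOL BL (log2 difference -1.48 ± 0.37, limma adjusted p = 0.0165, and up to 0.123 with 1 array left out). BRL1, a brassinosteroid receptor of vascular cells, was present in ATHB15 BL at 39 and 56.7 and absent in WOL BL at 8.3 and 12.3, at least 2.29-fold apart, and did not pass (limma adjusted p = 0.0599). Of 3 measured growth targets of the hormone 1, EXPA8, was lower (8.36% of all probe sets were). It was absent in ATHB15 BL at 35.6 and 2.3, and present in WOL BL on 1 array at 195.7 and absent on the other at 105.6, at least 4.34-fold lower (limma adjusted p = 0.0106, lost without 2 of the 4 arrays in turn). ARL and EXO had log2 differences of 0.44 ± 0.53 and -0.59 ± 0.40. GH3.3, an auxin-conjugating enzyme, was absent in ATHB15 BL at 5 and 16.8 and present in WOL BL at 317.7 and 138.8, at least 7.78-fold lower (limma adjusted p = 0.00567). Of 7 Aux/IAA genes, repressors of the auxin response, only IAA18 passed, at a log2 difference of -1.25 ± 0.36 (limma adjusted p = 0.0316). Over all probe sets 8.36% were lower and 6.65% were higher. The BIM1, EXPA8, GH3.3 and IAA18 calls were lost with the ubiquitin ratio as covariate (limma adjusted p = 0.0949, 0.0765, 0.122 and 0.131). GH3.3 lost its call without WOL BL A (adjusted p = 0.064) and IAA18 lost it without 3 of the 4 arrays in turn.

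Transcripts of the plastid genome were lower in ATHB15 cells with and without BL. Of 69 such probe sets, chosen as a group after values were seen, 31 were lower in ATHB15 BL and none higher, 67 had a negative difference and the median was -1.35. Of all 22746 probe sets 8.36% were lower, and 11034 had a negative difference. The large Rubisco subunit gene rbcL had 248.5 and 259.4 in ATHB15 BL and 770.6 and 1597.6 in WOL BL (log2 difference -2.06 ± 0.42, limma adjusted p = 0.00616), and it lost its call without 2 of the 4 arrays in turn. Without BL, 41 of the 69 were lower in the ATHB15 control than in the WOL control (2.69% of all probe sets were), with a median of -1.90. With the ubiquitin ratio as covariate none of the treated calls held. Plastid transcripts are mostly not polyadenylated, and what part this or RNA quality had in the differences was not tested.

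The probe sets with the largest differences were mostly named only by locus in the annotation used here. On the higher side, after EXPA15, stood AT2G45340 with 702.7 and 1188.7 in ATHB15 BL and 64.7 and 74.1 in WOL BL (log2 difference 3.45 ± 0.55, limma adjusted p = 0.00137). AT1G26680 was present in ATHB15 BL at 198.4 and 197.1 and absent in WOL BL at 4.4 on both arrays, at least 7.73-fold higher (limma adjusted p = 0.0005). On the lower side AT2G18210 was absent on ATHB15 BL 1 at 6.2 and marginal on ATHB15 BL 2 at 34.1, and present in WOL BL at 2009.8 and 2132.4, at least 57.8-fold lower (limma adjusted p = 9.29e-05). AT5G51890 was absent in ATHB15 BL at 64.3 and 12.1 and present in WOL BL at 2458.9 and 2908.7, at least 56.6-fold lower (limma adjusted p = 5.07e-05). All 4 of these calls held with every array left out in turn and with each 3' to 5' ratio as covariate. The 14 largest rises ended at a log2 difference of 2.65 (AT3G15240) and the 14 largest falls at -4.96 (AT5G16010).

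The untreated lines were set against each other in the same way, on 5 arrays that do not enter the group means of the treated comparison. Both comparisons came from the same fit and share its estimate of each probe set's variance, so their calls are not independent. There 663 probe sets were called (2.91%), 52 higher (0.229%) and 611 lower (2.69%) in the ATHB15 control. Of the treated higher calls 1250 of 1513 (82.6%) had the same sign without BL, and 34 of them were called there, which is 2.25% of the treated and 65.4% of the untreated higher calls. Of the treated lower calls 1683 of 1902 (88.5%) had the same sign, and 406 were called there, which is 21.3% of the treated and 66.4% of the untreated lower calls. Over all probe sets the sign was the same for 64.8%. The untreated differences of the treated calls were smaller, with medians of 0.40 for the higher and -0.95 for the lower, against 1.47 and -2.16 under BL. The calls were picked in the treated comparison, which favours treated differences that are estimated too large. What part this picking had in the gap was not tested. The 2 WOL control arrays also differed, with a correlation of 0.932 between them. WOL control B had 0.939 with ATHB15 control 1, where WOL control A had 0.912. What part WOL control B had in the smaller untreated differences was not tested. Across probe sets, which are not independent, the correlation of the treated and untreated differences was 0.592. Both differences share the reporter lines, and their group means share no array. Opposite calls were found for 2 probe sets.

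**Figure D4:**
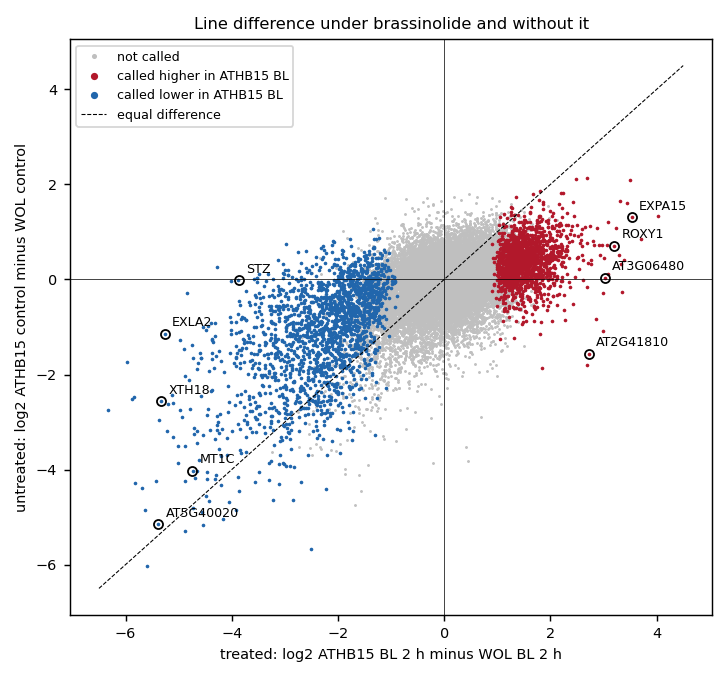
Log2 difference of each of 22746 probe sets between the lines under BL (x axis, ATHB15 BL 2 h minus WOL BL 2 h) and without BL (y axis, ATHB15 control minus WOL control), with red for called higher and blue for called lower under BL. AT5G40020, absent on all 5 ATHB15 arrays, lies near the dashed line of equal difference (fitted values of -5.38 and -5.15), whereas STZ (-3.87 and -0.02) and AT3G06480 (3.03 and 0.04) lie near 0 on the y axis.

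Some genes marked the lines whether or not BL was given. AT5G40020 was absent in ATHB15 BL at 5.8 and 3.5 and present in WOL BL at 545.5 and 1298, at least 32.7-fold lower (limma adjusted p = 2.96e-05), and without BL it was absent on all 3 ATHB15 control arrays and at least 23.1-fold lower (limma adjusted p = 5.36e-05). MT1C had a log2 difference of -4.02 without BL (limma adjusted p = 0.00969), against -4.74 with it. XTH18 and XTH21 were also called without BL, at -2.56 and -2.89 (limma adjusted p = 0.0167 and 0.0145). MT1C, XTH18 and XTH21 were each absent on 2 of the 3 ATHB15 control arrays. Among the higher genes AT5G25490 was called in both, at 2.68 with BL and 2.13 without (limma adjusted p = 0.00181 and 0.0135).

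For some genes the difference between the lines itself differed with BL. The difference of the line differences, treated minus untreated, was called at 29 probe sets (0.127%), 8 with a positive (0.0352%) and 21 with a negative change (0.0923%), all of them among the 3415. EXLA2 was 1 of the 21 (limma adjusted p = 0.0226), and no size is given for its change because neither ATHB15 BL array and only 1 of the 3 ATHB15 control arrays called it present. Its mean signal was 94 in the ATHB15 control and 11.8 in ATHB15 BL, while in WOL cells it was 213 in the control and 500, 586, 1019 and 996 at 0.5, 1, 2 and 4 h of BL, so the lines moved apart. AT3G06480 was 1 of the 8, with a change of 2.99 ± 0.53 (limma adjusted p = 0.0492). It averaged 170 in the ATHB15 control and 970 in ATHB15 BL, whereas the WOL means were 167 in the control and 268, 170, 107 and 146 over the times of BL. STZ averaged 1711 in the ATHB15 control and 161 in ATHB15 BL, and 1676 in the WOL control and 2070, 2788, 2474 and 3066 over the times of BL. Its untreated log2 difference was -0.02, but the change of -3.86 ± 0.71 did not pass (limma adjusted p = 0.0557). The count of 29 was 0 in limma with the ubiquitin ratio as covariate and with only the compared groups in the fit, where 1178 and 2863 probe sets had an unadjusted p under 0.05, against 2735 with the full fit. It was 134 without WOL control A, and between 0 and 6 without any other single array.

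For EXPA15, AUR3 and BBM the mean WOL signal was lower at every BL time than in the WOL control, which was not tested. EXPA15 averaged 3159 in the ATHB15 control and 4177 in ATHB15 BL, and in WOL cells 1239 in the control and 574, 497, 359 and 291 over 0.5, 1, 2 and 4 h of BL. AUR3 averaged 335 in the ATHB15 control and 338 in ATHB15 BL, against 237 in the WOL control and 88.8, 138, 101 and 86.9 over the times of BL. BBM averaged 261 and 302 in the ATHB15 groups without and with BL, against 246 in the WOL control and 98.5, 117, 80.2 and 56 over the times of BL. The WOL control arrays A and B lay far apart, at 132.1 and 341.2 for AUR3 and 172 and 320.4 for BBM. For AUR3 the WOL BL 1 h A array, at 169.2, was above WOL control A. For EXPA15 and BBM every WOL BL array was below both WOL controls. The changes of the line difference were 2.22 ± 0.62 for EXPA15, 0.99 for AUR3 and 1.64 for BBM, and none passed the test (limma adjusted p = 0.163, 0.479 and 0.335).

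**Figure D5:**
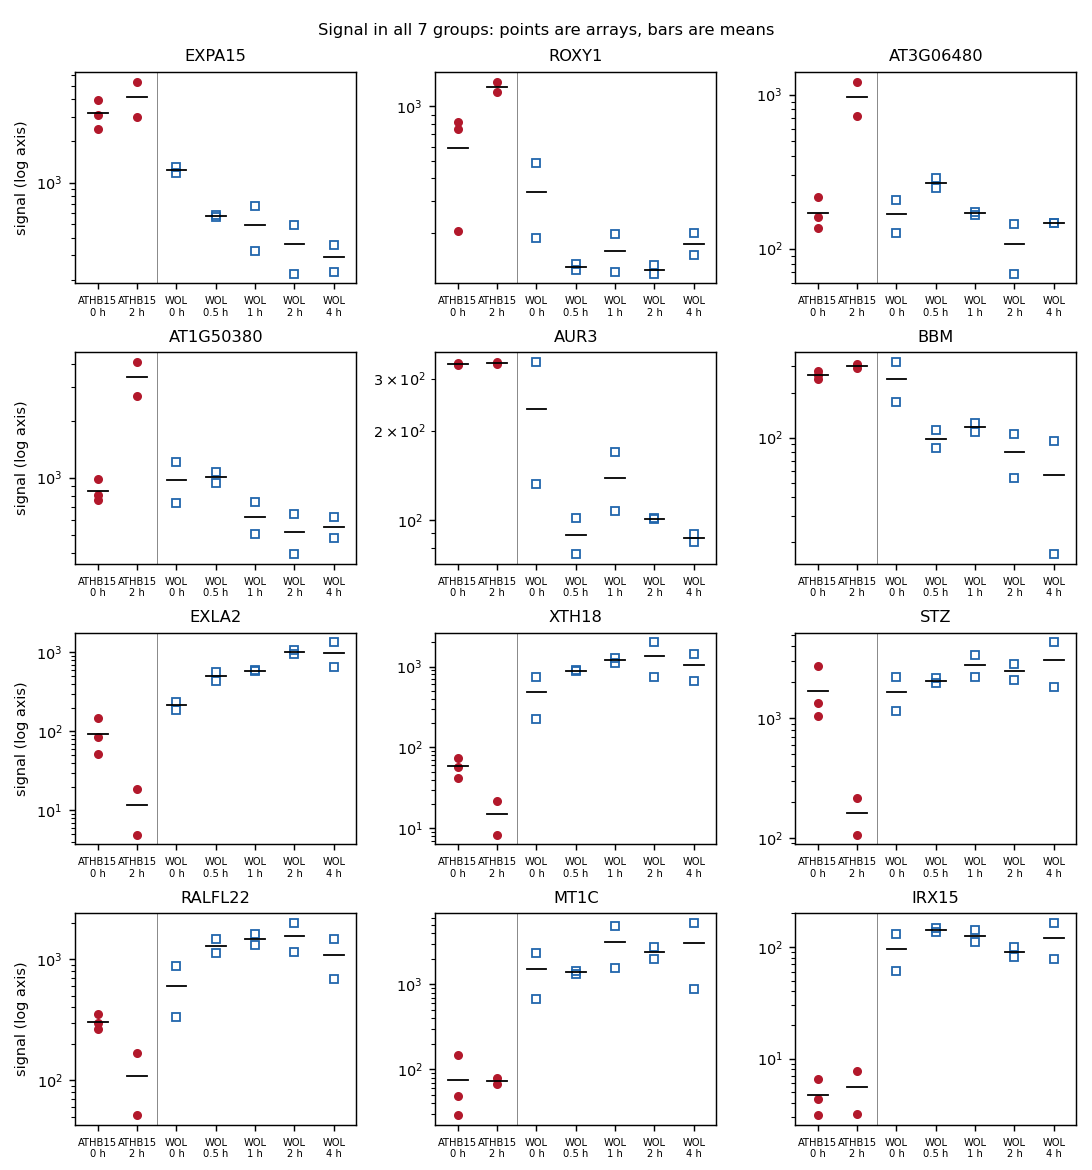
Signal of 12 named genes in all 7 groups (log axis, arbitrary units), with ATHB15 arrays as filled circles left of the grey line, WOL arrays as open squares right of it, hours of BL under each column and bars at the group means. STZ had means of 1711 and 161 in the ATHB15 control and ATHB15 BL, against 1676 to 3066 in the WOL groups, and MT1C lay below the WOL arrays in both ATHB15 groups.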

How the data were processed

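The members and the gene lists were chosen with earlier results of these data known. The authors deposited signal intensity on a linear scale, already scaled, since its mean trimmed by 2% at each end was 250 for all arrays. Per the file headers, each intensity comes with a detection p-value and a call (present, marginal or absent, used for bounds and a filter). The software that made them is not stated. Here log2(signal + 16) of all but 64 Affymetrix controls was fitted with limma 3.58.1 (R 4.3.3), giving each of 7 groups over 15 arrays its own mean (8 residual and 6.34 prior degrees of freedom), two-sided, adjusted by Benjamini-Hochberg over 22746 probe sets and called at an adjusted p under 0.05. A fold change on this scale understates the change of dim probe sets. The fit was tested on simulated data. Number of arrays limits the precision. Named genes are the 14 largest called differences per direction that match 1 gene, are present on both arrays of the higher group and do not overlap, and up to 6 called members per list or family. Of 241 listed genes in 16 lists, 37 have a named probe set, as have 21 of 37 families fixed by name. A further 18 families and the 25 largest genes with a symbol per direction were chosen after values were seen, as were other genes of known function. Gene names come from the platform annotation and the RefSeq gene table. ATHB15 numbers and WOL letters are not shared between the lines, and same-labelled arrays of a line did not all deviate together (correlations from -0.192 to 0.417). Alternatives were another offset, quantile normalization, median centring, a present filter, array weights, a trended robust prior, the compared groups alone, 3' to 5' ratios as covariates, a replicate block and each array left out.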

Additional observations from a re-analysis of the deposited data

Results flagged for a closer look

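For 5 of the named genes the difference between the lines itself differed between the treated and the untreated arrays, by the test of that change in limma. The change was 2.99 for AT3G06480 (adjusted p = 0.0492), 4.29 for AT2G41810 (0.0435), 4.48 for AT2G43890 (0.0492), 2.84 for AT1G50380 (0.0499) and -4.12 for EXLA2 (0.0226), as fitted on the log2 scale. AT2G41810 and AT2G43890 were called present only on the ATHB15 BL arrays among these 9, at least 5.37-fold and 5.83-fold above WOL BL, so their fitted change is no measured size and neither is that of EXLA2, which was absent on both ATHB15 BL arrays. With each of 9 arrays left out in turn, the call was lost 9 times for AT3G06480, 7 times for AT2G41810 and 8 times for AT2G43890, AT1G50380 and EXLA2, with adjusted p-values up to 0.23 (AT1G50380).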

How the results depend on the processing

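The treated comparison (3415 calls) stayed within 1.5 times of that count with the compared groups alone, offsets of 1 and 64, quantile normalization, median centring, the present filter, array weights, the GAPDH ratio and a trended robust prior. It gave 444 calls with the ubiquitin and 1265 with the actin 3' to 5' ratio as covariate, and between 845 and 2318 with 1 array left out. The untreated comparison (663 calls) gave 274 with an offset of 1, 310 with an offset of 64, 338, 310 and 78 with the ubiquitin, GAPDH and actin ratios, and between 28 and 571 with 1 array left out. The change of the line difference (29 calls) gave 0 with the compared groups alone, with an offset of 1 and with the ubiquitin ratio, where limma found 2863, 2529 and 1178 probe sets at an unadjusted p under 0.05. It gave 86 with an offset of 64, 13 with quantile normalization, 67 with median centring, 155 with the present filter, 79 with array weights, 16 and 15 with the GAPDH and actin ratios, 145 with the robust prior, and between 0 and 134 with 1 array left out. The cause of these shifts was not tested. With the replicate label as a block (replicate block) the counts were 3441, 679 and 41. Of the 165 named genes called, none changed sign under any alternative. Leaving out 1 array could not change a sign, because the treated arrays of every call did not overlap between the lines. The replicate block lost none of the 165 calls, and the ubiquitin ratio lost 131. The share of higher calls was 54% with an offset of 64, 38.6% with an offset of 1, 20.7% with the ubiquitin and 31.9% with the actin ratio, against 44.3%. Median centring gave 4 lower calls against 5 for XTH genes, 4 against 6 for the drying and cold set, and 25 against 31 for the plastid genome. The GSO1 call was lost with it (limma adjusted p = 0.0557). Signals near the lowest one called present (8.3 to 15.5) limit how low a level can be read.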

Other observations

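Of the 29 probe sets at which the line difference changed with BL, 18 match 1 gene. The 13 of these that went down include 12 named only by locus in the annotation beside EXLA2. The untreated log2 differences of these 12 lay between -0.86 and 0.75. AT1G62480 differed by -4.29 between the treated lines and by 0.26 between the untreated lines, and AT1G12080 by -3.52 and 0.04. Among the 5 that went up, AT3G27150 differed by 2.25 between the treated lines and by -0.64 between the untreated lines.

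Of 4 jacalin lectin probe sets none was called between the treated lines, and 2, JAL34 and JAL33, were lower in the ATHB15 control than in the WOL control, where 2.69% of all probe sets were. JAL34 had signals of 1755 and 1924.4 in ATHB15 BL and 1264 and 1074.6 in WOL BL, a log2 difference of 0.65 ± 0.48 (limma adjusted p = 0.425), and its untreated difference was -1.96 (adjusted p = 0.029). JAL33 had 0.35 ± 0.41 treated (adjusted p = 0.648), and untreated it was absent on all 3 ATHB15 control arrays and at least 3.87-fold lower (adjusted p = 0.014). The change of the line difference was not called for either (adjusted p = 0.126 and 0.118).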
